A study of Arabidopsis thaliana with 15 samples.

Results

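The comparison described here sets hen2-4 seedlings against wild type (wt) seedlings of Arabidopsis thaliana, both sampled 30 min after flg22 was added, first by annotated gene and then by start of transcription. It rests on 6 of the 15 libraries of the series, 3 of hen2-4 and 3 of wt, chosen by their labels. Of the genes in the deposited table, 18879 of 18934 were tested, and of the tag clusters (TCs) 26504 of 26677. Libraries were made by cap analysis of gene expression (CAGE), which sequences the capped 5′ ends of RNA, and a tag therefore marks where transcription began. Tags that start close together on a strand form a TC, and the TCs of a gene add up to its gene count.

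All seedlings were of the Col-0 accession, 14 days old, whole and grown on plates before they were moved to liquid medium. In hen2-4 the HEN2 gene is interrupted by a T-DNA, and wt carries none. Both received 3.3 µM flg22, a flagellin peptide to which plants respond with immune signalling. No untreated library was used here, so a difference between the genotypes cannot be split into a basal part and a response to flg22. Each library came from a pool of 10 seedlings. The replicates of a genotype were pools from the same seed batch treated at the same time, and hen2-4 is a single insertion line. Libraries of hen2-4 and wt at 10 min, and of rrp4-2, a line with a weak allele of the exosome core gene RRP4, at 30 min, are used below where stated.

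HEN2 encodes an RNA helicase of the nucleoplasm. It works with the nuclear exosome, a complex with 3′ to 5′ exonuclease activity that trims precursors of structural RNAs and destroys short-lived transcripts made around promoters, in introns and antisense to genes. In wild type such transcripts are usually scarce because they are removed soon after they are made, and CAGE detects them by their capped starts when they last longer.

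Gene counts held 15.4 to 24.8 M tags per library in hen2-4 and 19.3 to 22.1 M in wt (M, 1e+06 tags). Replicates of hen2-4 correlated with r of 0.984 to 0.989 across genes on the log2(CPM + 1) scale, and those of wt with r of 0.959 to 0.979, with wt replicate 3 in the lowest pairs. CPM are tags per 1e+06 tags after scaling by the TMM factors of edgeR. None of 19 tested tissue markers was called different, and 3 pollen or seed genes that seedlings should lack were not in the gene table. The summed level of 4 green tissue markers ran from 4324 to 5609 CPM in hen2-4 and from 6739 to 7579 CPM in wt, with no overlap. That of 2 epidermis markers lay the other way, from 239 to 284 CPM in hen2-4 and from 189 to 216 CPM in wt, again with no overlap, and those of the other 5 tissues overlapped. The part of these gaps in the results below was not tested, and fewer cells of a type cannot be told apart from less RNA per cell in whole seedlings.

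HEN2 itself (AT2G06990, chromosome 2, 2894904 to 2902020, TAIR10.1) stood at 7.89, 7.10 and 4.05 CPM in hen2-4 and at 57.5, 36.1 and 39.6 CPM in wt. The groups did not overlap, and the level was lower in hen2-4 (log2 fold change −2.81, SE 0.245, edgeR adjusted p 2.8e-05, n = 3 each).

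Genes and TCs count as called below with an adjusted p of 0.05 or less (edgeR quasi-likelihood test, Benjamini-Hochberg) together with a log2 fold change of 1 or more in either direction. At 30 min, 157 genes (0.832% of those tested) were called higher in hen2-4 and 31 (0.164%) lower. The lower calls depended on wt replicate 3, without which 72 genes were called lower. In a fit of the 6 libraries alone, with fewer libraries to estimate the spread, 37 genes were called higher and 5 lower.

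The calls differed by kind of gene. Protein-coding genes gave 102 higher calls and 30 lower calls among 18306 tested, a share of 0.557% higher. Annotated genes of other kinds gave 54 higher calls and no lower call among 440 tested, a share of 12.3%, and 307 of the 440 lay above 0. Their median log2 fold change was 0.35, against −0.03 over all genes tested. By kind, 21 of 129 long non-coding RNA genes, 11 of 89 other non-coding RNA genes, 6 of 31 microRNA genes, 3 of 30 small nucleolar RNA (snoRNA) genes and 2 of 2 small nuclear RNA (snRNA) genes were called higher. So were 5 of 74 pseudogenes and 5 of 78 transcribed pseudogenes. The 6-library fit called 17 of these non-coding genes and pseudogenes higher in place of 54. A gene reached the table only through TCs kept by the authors at 1 TPM in 3 libraries, which the mutants alone could pass. Among genes with at least 1 TPM in at least 3 of the 6 wt libraries of both times, an alternative chosen after the data were seen, 39 of 336 genes of other kinds (11.6%, median 0.25) and 66 of 17292 protein-coding genes (0.382%, median −0.04) were called higher. In that set 2 of 16 microRNA genes, 2 of 18 snoRNA genes and 1 of 54 transcribed pseudogenes were.

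**Figure D1:**
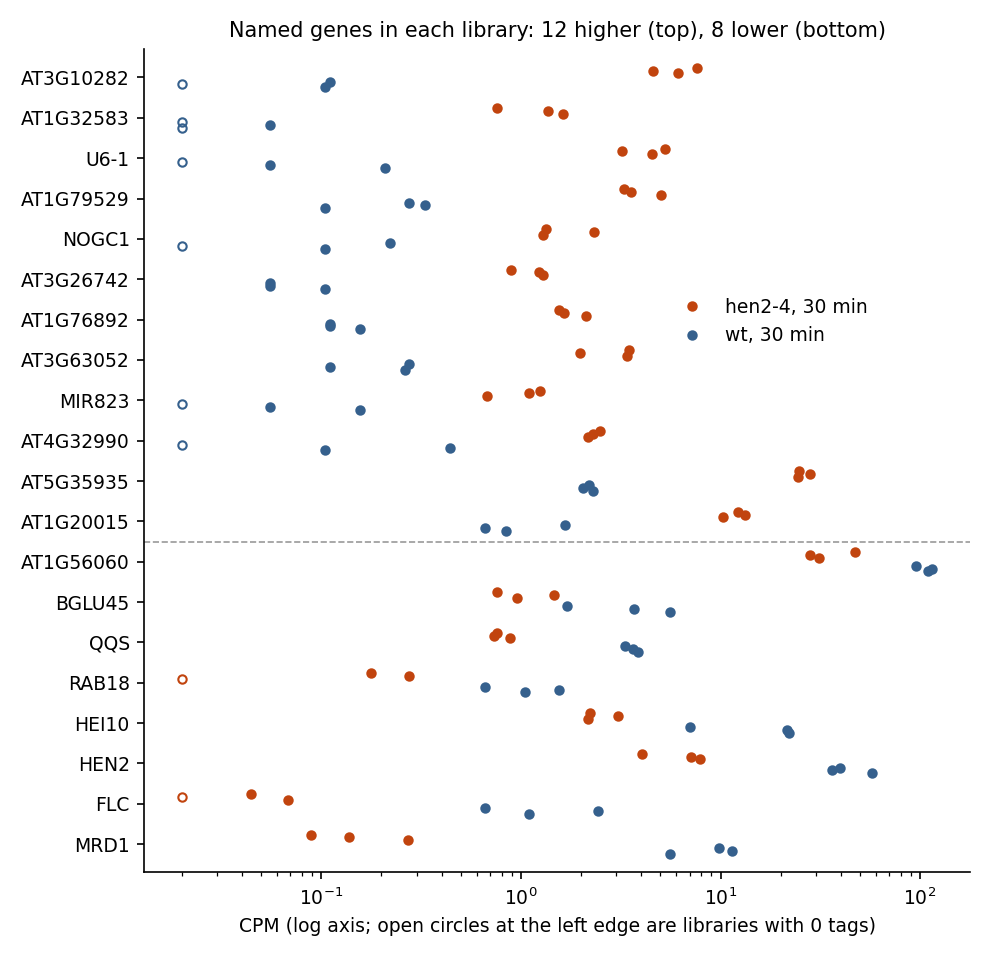
CPM in each library on a log axis for the 12 genes with the largest and the 8 with the smallest log2 fold change among called genes with at least 1 CPM in the higher genotype and no overlap between genotypes, hen2-4 in orange and wt in blue (n = 3 each); open circles stand for libraries with 0 tags. The separation in each row was a condition of the choice, and the rows run from AT3G10282 with the largest fold down to MRD1 with the smallest.

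Among transcribed pseudogenes, AT3G10282 (chromosome 3, 3181970 to 3183328) stood at 6.12, 4.58 and 7.66 CPM in hen2-4 and at 0.105, 0 and 0.110 CPM in wt. No wt library held 3 tags of it, so its level was at least 37.6-fold higher in hen2-4 than that floor (edgeR adjusted p 5.05e-06). AT1G35513 was higher by a log2 fold change of 2.99 (SE 0.309, edgeR adjusted p 0.000134), at 3.54 to 4.49 CPM in hen2-4 and 0.441 to 0.607 CPM in wt. Both were therefore nearly silent in wt and measured in every hen2-4 library. AT1G57840, at 0.535 to 0.641 CPM in hen2-4 and under 3 tags in every wt library, was at least 3.66-fold higher, a call lost under 7 alternative settings.

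The pseudogene AT5G35935 stood at 24.5, 28.1 and 24.7 CPM in hen2-4 and at 2.30, 2.04 and 2.21 CPM in wt (log2 3.56, SE 0.275, edgeR adjusted p 1.31e-05). In rrp4-2 it stood at 0.689, 0.0925 and 0.248 CPM, a log2 fold change of −2.69 against the same wt libraries. AT3G43690 was higher at 90.0 to 122 CPM in hen2-4 and 32.7 to 59.0 CPM in wt (log2 1.28, edgeR adjusted p 0.00514). SADHU10-1 (AT3G58865), a member of a family of retroposon-derived elements, was higher by 1.75 (edgeR adjusted p 0.0399), at 1.09 to 1.24 CPM in hen2-4 and 0.221 to 0.419 CPM in wt, and its call was lost under 9 alternatives. Of the family, SADHU1-2 (log2 1.26) and SADHU1-3 (log2 1.07) were called higher as well.

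Among long non-coding RNA genes, AT1G79529 stood at 5.03, 3.57 and 3.30 CPM in hen2-4 and at 0.105, 0.331 and 0.276 CPM in wt (log2 4.03, SE 0.376, edgeR adjusted p 5.83e-05). AT1G76892 stood at 2.11, 1.65 and 1.56 CPM in hen2-4 and at 0.157, 0.110 and 0.110 CPM in wt (log2 3.74, edgeR adjusted p 0.000202). These genes lay near the detection limit in wt. AT3G19002 was higher by 3.45 (edgeR adjusted p 0.011), a call lost under 5 alternatives. At higher levels, the antisense RNA gene AT2G31902 stood at 28.3 to 30.8 CPM in hen2-4 and 7.44 to 16.3 CPM in wt (log2 1.25, edgeR adjusted p 0.00929). Without wt replicate 3 its log2 fold change was 0.99, under the limit.

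Of the 89 other non-coding RNA genes, 50 lay above 0 and the median was 0.07, with 11 called. AT4G13495 stood at 458, 370 and 761 CPM in hen2-4 and at 66.1, 93.5 and 109 CPM in wt (log2 2.56, SE 0.301, edgeR adjusted p 0.000326). GUT15 (AT2G18440), named as a gene with an unstable transcript, stood at 276, 316 and 240 CPM in hen2-4 and at 65.1, 61.8 and 43.3 CPM in wt (log2 2.29, SE 0.249, edgeR adjusted p 0.000202). No hen2-4 library of either gene came down to a wt library. AT2G07042, at 1.5 to 2.61 CPM in hen2-4 and 0.262 to 0.607 CPM in wt, was higher by 2.42 (edgeR adjusted p 0.00342).

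Small structural RNA genes were next, counted by the CAGE tags assigned to them. Which form of the RNA gave these tags was not tested, and levels of the mature RNAs were not measured. U6-1 (AT3G14735), a gene of the U6 snRNA of the spliceosome, stood at 4.56, 3.21 and 5.30 CPM in hen2-4 and at 0.209, 0.0552 and 0 CPM in wt (log2 5.50, SE 0.573, edgeR adjusted p 0.000138). U6 genes are near-identical copies and only tags that mapped once were counted, so the assignment to this copy is uncertain. U12 (AT1G61275), the snRNA of the minor spliceosome, stood at 22.4, 24.9 and 40.9 CPM in hen2-4 and at 3.40, 5.19 and 8.99 CPM in wt (log2 2.33, edgeR adjusted p 0.00209). The snoRNA genes, whose products guide the modification of other RNAs, had a median log2 fold change of 1.30, with 27 of 30 above 0. Among the 18 with at least 1 TPM in at least 3 wt libraries, the median was 0.89, with 15 above 0. AT1G20015 stood at 10.3, 13.2 and 12.3 CPM in hen2-4 and at 0.838, 0.663 and 1.65 CPM in wt (log2 3.5, SE 0.434, edgeR adjusted p 0.000515). SNOR111 stood at 11.8, 13.9 and 11.2 CPM in hen2-4 and at 2.15, 2.04 and 3.03 CPM in wt (log2 2.35, edgeR adjusted p 5.89e-05). The third call, AT3G01316 at 1.79, was lost under 6 alternatives. Tags of AT1G20015 came from a TC 123 bp upstream of the annotated gene.

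MicroRNA genes are transcribed as long capped precursors, and CAGE counts the start of that precursor and not the mature microRNA. Of 31 such genes, 27 lay above 0, with a median log2 fold change of 1.19. Among the 16 with at least 1 TPM in at least 3 wt libraries, 14 lay above 0, with a median of 0.70. MIR162b stood at 6.12, 7.88 and 4.90 CPM in hen2-4 and at 0.995, 1.82 and 0.662 CPM in wt (log2 2.44, SE 0.3, edgeR adjusted p 0.000502). MIR156b stood at 3.26, 2.84 and 2.98 CPM in hen2-4 and at 0.419, 0.939 and 0.386 CPM in wt (log2 2.37, edgeR adjusted p 0.0024). MIR825 stood at 2.52, 3.07 and 2.94 CPM in hen2-4 and at 0.733, 0.773 and 0.276 CPM in wt (log2 2.25, edgeR adjusted p 0.0131). In these 3 genes no hen2-4 library came down to a wt library. Their calls were lost in the 6-library fit (edgeR adjusted p 0.0559, 0.0652 and 0.0712), and that of MIR825 also without hen2-4 replicate 2 (edgeR adjusted p 0.0529). MIR823, at 0.680 to 1.25 CPM in hen2-4 and 0 to 0.157 CPM in wt (log2 3.71, edgeR adjusted p 0.0263), and MIR168a, at 1.74 to 3.25 CPM in hen2-4 and 0.773 to 0.882 CPM in wt (log2 1.63, edgeR adjusted p 0.0482), lost their calls under 6 and 10 alternatives. MIR396a had no tag in any wt library and 0.136 to 0.401 CPM in hen2-4, at least 1.85-fold above the floor. It lost its call under 5 of the alternatives that tested it, and held too few tags to be tested in the 6-library fit.

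The mature microRNAs encoded by these 6 genes are shown to say which regulators the precursors belong to, with the seed (bases 2 to 8) in capitals. They were read from the RefSeq genome (TAIR10.1), and no seed is shared between them. In Arabidopsis, miR156 targets SPL transcription factor genes, miR162 targets DCL1, miR168 targets AGO1, miR396 targets GRF transcription factor genes and miR823 targets CMT3.
miR156b-5p: uGACAGAAgagagugagcac
miR162b-3p: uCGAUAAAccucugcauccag
miR168a-5p: uCGCUUGGugcaggucgggaa
miR396a-5p: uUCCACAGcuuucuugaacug
miR823: uGGGUGGUgaucauauaagau
miR825: uUCUCAAGaaggugcaugaac

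Among protein-coding genes the largest calls were of genes scarcely detected in wt. AT3G63052 stood at 3.40, 1.97 and 3.47 CPM in hen2-4 and at 0.262, 0.110 and 0.276 CPM in wt (log2 3.72, edgeR adjusted p 0.00119). AT4G32990 stood at 2.18, 2.29 and 2.49 CPM in hen2-4 and at 0.105, 0.442 and 0 CPM in wt (log2 3.64, edgeR adjusted p 0.00316). AT1G32583, AT3G26742 and AT1G47915 were under 3 tags in every wt library. Their levels were at least 7.71-fold, 7.01-fold and 6.07-fold higher in hen2-4. NOGC1 (AT1G62580), named as a guanylate cyclase, was called at 1.29 to 2.34 CPM in hen2-4 and 0 to 0.221 CPM in wt (log2 3.86, edgeR adjusted p 0.0498), a call lost under 9 alternatives.

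The genes called lower included a pair that overlap on opposite strands. MRD1 (AT1G53480, chromosome 1, 19963047 to 19964712, minus strand) stood at 0.272, 0.137 and 0.0891 CPM in hen2-4 and at 5.6, 11.5 and 9.87 CPM in wt (log2 −5.80, SE 0.663, edgeR adjusted p 0.000296). HEI10 (AT1G53490, 19963267 to 19966952, plus strand), which promotes crossovers in meiosis, stood at 2.18, 3.07 and 2.23 CPM in hen2-4 and at 22.1, 21.4 and 7 CPM in wt (log2 −2.75, SE 0.354, edgeR adjusted p 0.000733). Both genes were lower in hen2-4 than in any wt library. FLC (AT5G10140), the MADS-box repressor of flowering, held at most 1 tag in each hen2-4 library and stood at 1.1, 2.43 and 0.662 CPM in wt, at least 8.82-fold lower in hen2-4 (edgeR adjusted p 0.00302). The HEI10 and FLC calls were lost in the 6-library fit (adjusted p 0.0543 and 0.0652).

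QQS (AT3G30720), an orphan gene linked to starch content, stood at 0.884, 0.733 and 0.757 CPM in hen2-4 and at 3.87, 3.64 and 3.31 CPM in wt (log2 −2.19, SE 0.295, edgeR adjusted p 0.00106). In rrp4-2 it stood at 29.7, 32.0 and 21.7 CPM, a log2 fold change of 2.94 against the same wt libraries. AT1G56060 stood at 31.3, 27.9 and 47.4 CPM in hen2-4 and at 109, 115 and 95.4 CPM in wt (log2 −1.58, SE 0.232, edgeR adjusted p 0.00209). The calls of RAB18, a dehydrin gene of the abscisic acid response (log2 −2.67, edgeR adjusted p 0.0408), and BGLU45, a beta-glucosidase gene (log2 −1.78, edgeR adjusted p 0.0403), were lost under 9 and 11 alternatives.

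Genes of the exosome and its partners were measured to see whether the rest of the machinery differed. Of 27, HEN2 was called lower and none higher by edgeR, with 6 at an unadjusted p under 0.05 and a median log2 fold change of 0.05. Over all genes tested, 0.832% were called higher, 0.164% lower and 11.3% had an unadjusted p under 0.05, the shares against which this and the following lists are to be read. MTR4, the nucleolar relative of HEN2, stood at a mean of 40.5 CPM in hen2-4 and 44.1 CPM in wt (log2 −0.12, edgeR adjusted p 0.855). SOP1, a zinc finger partner of HEN2, had a mean of 28.4 CPM in hen2-4 and 12.9 CPM in wt and was not called by edgeR or limma voom (log2 1.14, edgeR adjusted p 0.0904), while DESeq2 called it higher. RRP46, of the exosome core, passed the limit on p but not on fold (log2 0.74, edgeR adjusted p 0.0192). Of 19 other genes of RNA decay and silencing, none was called by edgeR, DESeq2 or limma voom, 2 had an unadjusted p under 0.05 and the median was 0.12, with LSM1B at 0.47 (edgeR adjusted p 0.427) and RDR6 at 0.32 (edgeR adjusted p 0.42).

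The lists of flg22 response, NLR, salicylic acid and heat shock genes held no call at 30 min with edgeR or limma voom, and DESeq2 called 1 NLR gene lower and 1 salicylic acid gene higher. None of 16 early flg22 response genes passed in edgeR, with 1 at an unadjusted p under 0.05 and a median of −0.29 (range −0.98 to 0.33), and with a single library left out the median ran from −0.39 to −0.11. FRK1, a receptor kinase gene used as a marker of flg22 responses, stood at 2.18, 3.53 and 1.78 CPM in hen2-4 and at 1.36, 0.718 and 12.8 CPM in wt, so that wt replicate 3 alone lay above hen2-4. MPK11, a kinase of the same pathway, was at −0.56 (edgeR adjusted p 0.425). None of 30 tested NLR immune receptor genes was called by edgeR (median −0.14, 4 at an unadjusted p under 0.05). SOC3 (AT1G17600), the gene DESeq2 called, came closest at 0.476, 0.458 and 0.223 CPM in hen2-4 and 1.36, 0.939 and 1.38 CPM in wt (log2 −1.68, edgeR adjusted p 0.0532), and VICTR (AT5G46520) was at −0.71 (edgeR adjusted p 0.28).

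None of 13 salicylic acid pathway genes was called by edgeR (median −0.05, 2 at an unadjusted p under 0.05). FMO1, a monooxygenase of systemic immunity and the gene DESeq2 called, stood at 13.1, 29.7 and 24.9 CPM in hen2-4 and at 13.4, 10.6 and 8.22 CPM in wt, with overlap (log2 1.08, edgeR adjusted p 0.0966), and ALD1 was at 0.91 (edgeR adjusted p 0.741). None of 22 heat shock and protein stress genes was called by edgeR, and 0 had an unadjusted p under 0.05, with a median of −0.13 that became 0.37 without wt replicate 3. The heat shock factor gene HSFA2 stood at 17.1, 19.4 and 20.7 CPM in hen2-4 and at 13.9, 21.1 and 60.9 CPM in wt, where replicate 3 was again the highest. The small heat shock protein gene HSP17.6C (AT1G53540) was at 0.52 (edgeR adjusted p 0.82). A last list held genes known from the study for alternative starts, with MEKK1 and GATA8 left out. It was tested on summed gene counts, which do not show whether single starts changed. Of its 7 genes none was called by edgeR (median −0.07, 0 at an unadjusted p under 0.05), with SUVR5 at −0.50 and HSP70b at −0.43 (edgeR adjusted p 0.541 and 0.722).

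At the level of starts, 1260 TCs (4.75% of those tested) were called higher in hen2-4 and 83 (0.313%) lower. Of the TCs that belong to genes, 308 of 23712 were called higher and 76 lower. Of those in no gene, 952 of 2792 were called higher and 7 lower. Of 372 genes with a called TC, 188 were themselves called and 184 were not. The lower TC calls ran from 50 to 170 when a single library was left out, the highest count again without wt replicate 3.

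TCs were classed by position. A TC of a gene was primary when its midpoint lay within 100 bp of the most upstream annotated 5′ end and alternative when farther. Of the 13214 alternative TCs tested, 5984 lay only 101 to 200 bp downstream, among them the HEN2 TC at 135 bp. The class alternative therefore does not by itself mean a second promoter. A TC in no gene was upstream antisense when it lay on the opposite strand within 400 bp upstream of a protein-coding 5′ end, antisense when opposite to the body of such a gene, and otherwise intergenic, a class of which 342 of 816 TCs lay inside an annotated gene of their strand to which no tags of theirs were assigned. Called higher were 104 of 241 upstream antisense TCs (43.2%), 660 of 1589 antisense TCs (41.5%) and 188 of 816 intergenic TCs (23.0%), against 133 of 10189 primary TCs (1.31%) and 173 of 13214 alternative TCs (1.31%). None of the 405 organelle TCs was called higher by edgeR, DESeq2 or limma voom (4 above 0 at an unadjusted p under 0.05). By edgeR 5 (1.23%) were called lower, against 0.313% of all TCs. Of the 405 organelle TCs 23.2% lay above 0, against 44.7% of all TCs tested. Lower calls were 0, 2 and 2 in the 3 classes outside genes.

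**Figure D2:**
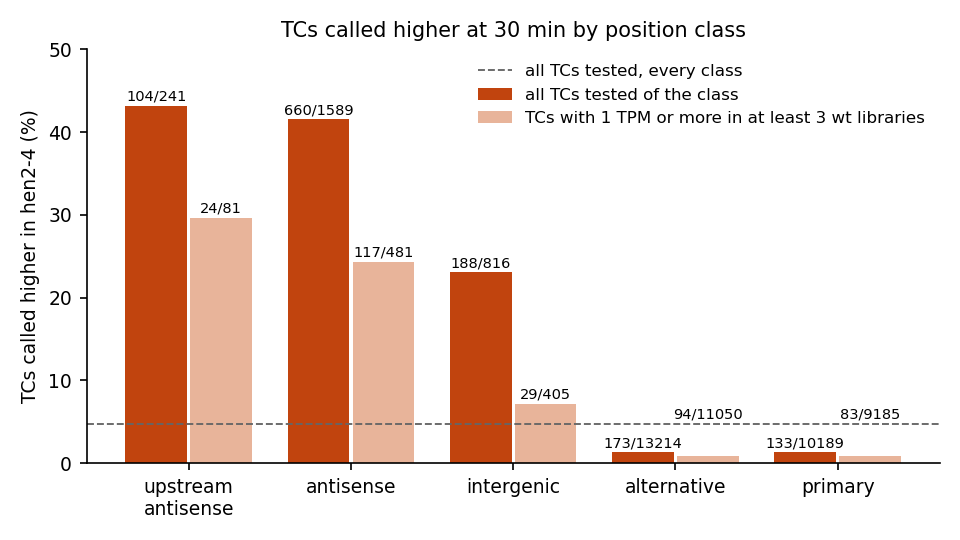
Percent of TCs called higher in hen2-4 against wt at 30 min by position class, for all TCs tested (dark bars) and for TCs with at least 1 deposited TPM in at least 3 wt libraries (pale bars), with the count called over the count tested above each bar; the dashed line is the share over all TCs, 4.75%. The upstream antisense and antisense bars stand highest, at 43.2% and 41.5%, and the primary and alternative bars at 1.31%.

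The authors kept a TC only when it reached 1 TPM in 3 libraries, so a TC that passed through the mutants alone had to differ. Where TCs were limited to those with at least 1 TPM in at least 3 of the 6 wt libraries, an alternative chosen after the data were seen, 24 of 81 upstream antisense TCs (29.6%), 117 of 481 antisense TCs (24.3%) and 29 of 405 intergenic TCs (7.16%) were called higher. Primary and alternative TCs stood at 0.904% and 0.851%. The order of upstream antisense, antisense and intergenic TCs was the same in this set.

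Within classes the calls were uneven. Among alternative TCs, 36 of 403 in introns (8.93%) and 30 of 248 more than 100 bp upstream (12.1%) were called higher, against 23 of 3053 in coding sequence (0.753%). With each gene body cut into 4 equal pieces, antisense TCs were called higher in 37.1% of cases in the piece nearest the 5′ end, 38.1% and 38.3% in the middle pieces and 45.7% in the piece nearest the 3′ end. The 104 upstream antisense TCs lay a median of 240.5 bp from the 5′ end of the gene, with quartiles of 169.75 and 310.75 bp. Intergenic TCs outside every annotated gene of their strand were called higher in 142 of 474 cases (30.0%), and those inside one in 46 of 342 (13.5%). All these shares include TCs that could pass the authors' filter through the mutants alone. They were not recounted under the limit on wt libraries, so the part of the filter in these differences was not tested.

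As a share of all tags these classes were small in both genotypes. Upstream antisense TCs took 0.127%, 0.135% and 0.152% of tags in hen2-4 and 0.0497%, 0.0482% and 0.0512% in wt, a ratio of means of 2.77. Antisense TCs took 0.401%, 0.424% and 0.419% in hen2-4 and 0.2%, 0.212% and 0.2% in wt, a ratio of 2.03. In both classes the groups were apart (exact two-sided permutation test, p = 0.1, the smallest that 3 against 3 allows). Intergenic TCs took 0.766%, 0.751% and 0.754% in hen2-4 and 0.677%, 0.808% and 0.691% in wt, with overlap (ratio 1.04, exact permutation p = 0.4). The sums include TCs that passed the authors' filter through the mutants. Over the TCs with at least 1 TPM in at least 3 wt libraries, the 81 upstream antisense TCs took 0.104%, 0.111% and 0.129% of tags in hen2-4 and 0.0447%, 0.0434% and 0.0465% in wt (ratio 2.56). The 481 antisense TCs took 0.265%, 0.282% and 0.281% in hen2-4 and 0.165%, 0.175% and 0.16% in wt (ratio 1.66), and both classes again did not overlap (exact permutation p = 0.1 each). The ratio of the 405 intergenic TCs was 0.988 (exact permutation p = 1).

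**Figure D3:**
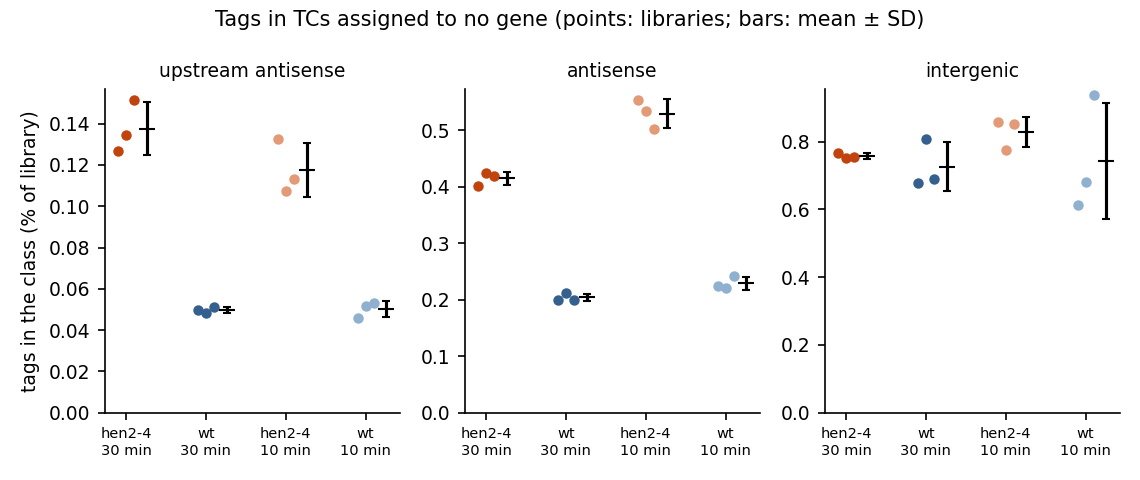
Percent of each library's tags in upstream antisense, antisense and intergenic TCs for hen2-4 and wt at 30 and 10 min; points are libraries, bars the mean and SD (n = 3), and each axis starts at 0. In the upstream antisense panel hen2-4 at 30 min lies between 0.127% and 0.152% and wt between 0.0482% and 0.0512%, while the intergenic groups overlap.

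TCs named below for their fold had at least 5 CPM in the higher genotype and no overlap between genotypes. Under these conditions the upstream antisense TC of AT3G28140 had the largest fold of its class. It stood at 23.4, 35.3 and 36.8 CPM in hen2-4 and at 0.208, 0.337 and 0.166 CPM in wt (log2 7.04, SE 0.294, edgeR adjusted p 2.24e-09). This pair was an exception, since the gene downstream was called higher as well, at 30.7, 25.6 and 25.7 CPM in hen2-4 and 6.55, 6.07 and 2.37 CPM in wt (log2 2.45, edgeR adjusted p 0.000743). The TC upstream of AT2G18740 stood at 52.3, 51.2 and 80.4 CPM in hen2-4 and at 0.831, 1.97 and 0.610 CPM in wt (log2 5.75, SE 0.343, edgeR adjusted p 6.12e-08). The gene itself stood at 35.2, 36.0 and 36.9 CPM in hen2-4 and 31.8, 29.0 and 32.6 CPM in wt and was not called (log2 0.21, edgeR adjusted p 0.644). In hen2-4 the antisense start thus carried more tags than the gene, and in wt far fewer. All 182 bases of this TC lie in annotated exon sequence, within the span of the non-coding RNA gene AT2G18735. That gene was called higher itself (log2 1.30, edgeR adjusted p 0.0332). Of the 258 bases of the AT3G28140 TC, 154 lie in annotated exon sequence of either strand.

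The other leading members of the class were under 3 tags in every wt library. Both lay wholly in annotated exon sequence of either strand, over 192 bases upstream of AT3G49140 and 102 bases upstream of SOT18. The TC upstream of AT3G49140 stood at 8.32, 4.99 and 7.03 CPM in hen2-4, at least 41.5-fold above the floor, with the gene itself at −0.15 (edgeR adjusted p 0.799). The TC upstream of SOT18, a sulfotransferase gene of glucosinolate synthesis, stood at 7.72, 5.84 and 5.70 CPM in hen2-4, at least 39.2-fold above the floor, with the gene at 0.46 (edgeR adjusted p 0.366). The 104 called TCs lay upstream of 101 genes, of which 91 were tested, and AT3G28140 alone was called, against 0.832% higher over all genes. The median log2 fold change of these genes was −0.02, against −0.03 over all genes.

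Antisense TCs with the largest folds lay opposite GSTU5, a glutathione transferase gene, AT3G07460, ADS2, a fatty acid desaturase gene, and CIL. The GSTU5 antisense TC stood at 5.86, 5.84 and 3.74 CPM in hen2-4 and under 3 tags in every wt library, at least 31.5-fold higher. The ADS2 antisense TC stood at 11.6, 8.58 and 9.97 CPM in hen2-4 and at 0.208, 0.0562 and 0.111 CPM in wt (log2 6.24, SE 0.558, edgeR adjusted p 3.03e-06). The AT3G07460 TC was at 6.28 (edgeR adjusted p 3.67e-07), and the CIL TC at least 31.3-fold higher. The 660 called antisense TCs lay opposite 590 genes. Of the 531 tested, 3 were called higher and none lower, with a median of −0.03, against 0.832% higher and 0.164% lower over all genes. The 3 were ROPGAP3, a GTPase-activating protein gene (log2 1.18), UMAMIT45, a transporter gene (log2 1.92), and HAT3, a homeobox gene (log2 1.06).

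Intergenic TCs were led by one 317 bp from AT5G62720, at 6.59, 13.5 and 2.85 CPM in hen2-4 and under 3 tags in every wt library, at least 46.7-fold higher. The next, a TC at the 5′ end of AT1G75945, was on the strand of that gene and overlapped its annotation, and is intergenic only in that the deposited counts gave it to no gene. It stood at 40.1, 45.8 and 47.5 CPM in hen2-4 and at 0.104, 0.112 and 1.39 CPM in wt (log2 6.38, SE 0.626, edgeR adjusted p 7.23e-06). In rrp4-2 its log2 fold change against the same wt libraries was 0.62 and was not called. The TC 27 bp from AT2G02880 stood at 43.8, 54.7 and 34.3 CPM in hen2-4 and at 1.09, 1.74 and 2.38 CPM in wt (log2 4.67, edgeR adjusted p 6.07e-07), and one inside AT3G12833, on its strand but likewise given to no gene, at 5.19 to 6.61 CPM in hen2-4 and 0 to 0.393 CPM in wt (log2 4.65, edgeR adjusted p 1.05e-05).

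The starts that carry this result are shown for the 7 TCs with the largest log2 fold change whose windows hold no base of an annotated exon, among TCs with at least 5 CPM in hen2-4 and no overlap. Each sequence runs 5′ to 3′ on the strand of the TC, with the 40 bases before the TC in lower case and the TC in capitals, read from the RefSeq genome (TAIR10.1). The windows are chr5:25191010-25191121 (plus strand) near AT5G62720, chr4:9506038-9506268 (plus) upstream of SNC1, chr2:843643-843710 (minus) near AT2G02880, chr5:26149138-26149375 (plus) opposite GRF8, chr4:12157161-12157309 (plus) upstream of CRK14, chr2:10454758-10454886 (plus) upstream of AT2G24600 and chr2:10771396-10771503 (plus) upstream of AT2G25297.
AT5G62720 intergenic TC: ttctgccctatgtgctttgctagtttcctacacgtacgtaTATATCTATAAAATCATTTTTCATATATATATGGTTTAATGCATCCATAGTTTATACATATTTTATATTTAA
SNC1 upstream antisense TC: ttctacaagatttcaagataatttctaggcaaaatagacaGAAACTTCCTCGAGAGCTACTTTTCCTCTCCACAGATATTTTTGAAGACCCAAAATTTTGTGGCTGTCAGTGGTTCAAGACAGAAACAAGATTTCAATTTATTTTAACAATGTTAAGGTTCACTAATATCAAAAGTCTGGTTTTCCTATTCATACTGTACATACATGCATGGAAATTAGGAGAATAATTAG
AT2G02880 intergenic TC: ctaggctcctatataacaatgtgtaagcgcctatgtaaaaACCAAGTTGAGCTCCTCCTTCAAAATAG
GRF8 antisense TC: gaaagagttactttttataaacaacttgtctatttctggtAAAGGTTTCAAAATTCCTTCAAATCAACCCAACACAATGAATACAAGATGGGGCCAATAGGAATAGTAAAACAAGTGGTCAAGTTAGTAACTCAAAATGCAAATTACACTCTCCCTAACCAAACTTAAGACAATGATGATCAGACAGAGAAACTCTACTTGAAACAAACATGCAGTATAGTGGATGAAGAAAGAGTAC
CRK14 upstream antisense TC: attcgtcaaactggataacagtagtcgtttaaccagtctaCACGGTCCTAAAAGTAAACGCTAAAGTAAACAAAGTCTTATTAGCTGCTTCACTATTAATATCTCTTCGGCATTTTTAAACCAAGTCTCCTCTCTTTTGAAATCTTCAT
AT2G24600 upstream antisense TC: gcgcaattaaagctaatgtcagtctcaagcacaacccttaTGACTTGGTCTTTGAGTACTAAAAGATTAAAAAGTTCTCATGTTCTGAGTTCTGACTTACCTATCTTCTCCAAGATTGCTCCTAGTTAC
AT2G25297 upstream antisense TC: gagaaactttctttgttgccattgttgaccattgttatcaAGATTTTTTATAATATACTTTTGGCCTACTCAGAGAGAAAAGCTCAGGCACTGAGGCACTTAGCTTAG

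SNC1 encodes an NLR immune receptor, CRK14 a cysteine-rich receptor-like kinase and GRF8 a 14-3-3 protein. The CRK14 TC stood at 11.1, 9.98 and 15.8 CPM in hen2-4 and at 0.519, 0.281 and 0.943 CPM in wt. The GRF8 TC, within an intron on the other strand, stood at 6.12, 6.70 and 8.95 CPM in hen2-4 and at 0.0519, 0.506 and 0.388 CPM in wt. SNC1 lies in a cluster of similar receptor genes, and tags in sequence shared with a copy would not have been counted.

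The start windows were searched for TATAAA, the core of the TATA box, in the 60 bases before and the first 20 bases of each TC. It was found on the strand of the TC in 11.5% of upstream antisense TCs called higher, 11.8% of antisense TCs called higher and 13.8% of intergenic TCs called higher, against 15.2% of all nuclear TCs and 18.6% of primary TCs. Of the TCs not called higher in these classes 13.9%, 9.26% and 17.36% held it. On the other strand the shares were 12.5%, 8.64% and 13.8% of called TCs and 5.11%, 5.81% and 9.39% of those not called higher, against 8.95% of all nuclear TCs. AATAAA, a signal for cleavage and polyadenylation, was searched within 200 bases after each TC, and other forms of the signal were not. On the same strand AATAAA followed 8.65%, 11.1% and 9.57% of the called TCs in the same order of classes, against 5.56% of all nuclear TCs. Among TCs of the same 3 classes not called higher it followed 14.6%, 7.97% and 13.4%, so the called TCs held it less often in the upstream antisense and intergenic classes and more often in the antisense class. On the other strand the shares were 9.62%, 7.73% and 18.1% of the called TCs and 11.7%, 4.95% and 18.0% of those not called higher, against 12.1% of all nuclear TCs. Where a TC is shorter than 20 bases both windows share bases. Median GC content of the start windows was 32.5%, 33.8% and 35.0% in the 3 called classes and 33.8% over all nuclear TCs.

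Inside genes, the primary TCs with the largest folds among those with at least 5 CPM in hen2-4 were those of AT3G10282 and AT5G35935, described above, of AT4G13495 and of the long non-coding RNA gene AT1G04295, at 13.4, 15 and 12.4 CPM in hen2-4 and 2.91, 2.47 and 1.77 CPM in wt (log2 2.51, SE 0.207, edgeR adjusted p 1.3e-06). Alternative TCs were led by one in AT5G13560, 5183 bp downstream of the 5′ end, at 20.8, 18.4 and 22.8 CPM in hen2-4 and 0.727, 1.12 and 0.721 CPM in wt (log2 4.59, SE 0.328, edgeR adjusted p 3.16e-07). A TC 141 bp upstream of RLP37, a receptor-like protein gene, stood at 4.52, 4.67 and 6.32 CPM in hen2-4 and 0.26, 0.449 and 0.499 CPM in wt (log2 3.67, edgeR adjusted p 5.03e-05). Lower TCs outside HEI10, MRD1 and HEN2 included one in the coding sequence of AT1G56660 (log2 −2.16, edgeR adjusted p 0.00104), the primary TC of AT1G56060 (log2 −1.61, edgeR adjusted p 0.000343) and that of AT3G30390, at 78.6, 97.1 and 58.8 CPM in hen2-4 and 275, 204 and 202 CPM in wt (log2 −1.54, edgeR adjusted p 0.00088).

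Changes in which TC a gene used were tested with limma (diffSplice) on 3590 TCs of 1671 genes, each TC with at least 10% of its gene's tags in at least 3 libraries. A TC was called higher in use in 33 cases (0.919%) and lower in 30 (0.836%), in 34 genes, of which 28 had a call each way and 5 were called at gene level. Of the 33 TCs higher in use, 28 were alternative and 5 primary, and of the 30 lower in use, 18 were alternative and 12 primary. Among all 3590 in the test, 2474 were alternative (68.9%) and 977 primary. The median distance of the TCs higher in use from the 5′ end was 1006 bp, against 122.5 bp for the TCs lower in use.

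In AT5G13560 the TC 5183 bp downstream took 26.6%, 30.2% and 28.1% of the gene's tags in hen2-4 and 1.13%, 1.86% and 1.09% in wt (log2 difference of use 4.84, limma adjusted p 1.15e-09). The upstream TC of the same gene stood at 57.4, 42.5 and 58.4 CPM in hen2-4 and 63.7, 59.2 and 65.6 CPM in wt. In AT4G10750 a TC in the coding sequence took 23.1%, 30.9% and 26.7% in hen2-4 and 2.26%, 2.86% and 3.35% in wt (log2 difference 3.66, limma adjusted p 2.3e-09). In AT1G78750 a TC in the coding sequence took 51.5%, 70.8% and 57.4% in hen2-4 and 8.33%, 6.56% and 12.0% in wt (log2 difference 3.88, limma adjusted p 0.000418). In each of these genes the inner start gained share in all 3 hen2-4 libraries. SAP10, a zinc finger gene of the stress-associated family, and AT1G35255 went the other way (limma adjusted p 0.00119 and 0.0332). The TC nearer the 5′ end took 34.1% to 61.1% and 28.0% to 41.5% of their tags in hen2-4. In wt its share was 0% to 5.13% and 0% to 7.69%, on under 3 tags in every wt library for both genes. The AT1G35255 TC held only 7 to 17 tags per library in hen2-4.

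HEI10 had the largest change of use. Its TC 118 bp upstream of the annotated 5′ end had no tag in hen2-4 and stood at 4.73, 5.62 and 1.94 CPM in wt, at least 26.2-fold lower. Its primary TC stood at 0.2, 0.0449 and 0 CPM in hen2-4 and at 15.3, 15.1 and 4.10 CPM in wt (log2 −7.27, SE 0.724, edgeR adjusted p 8.24e-06). A TC 1038 bp inside the gene stood at 1.93, 2.97 and 2.23 CPM in hen2-4 and at 1.92, 1.12 and 0.998 CPM in wt and was not called (log2 0.82, edgeR adjusted p 0.201). It held 90.6%, 98.5% and 100% of the gene's tags in hen2-4 and 8.77%, 5.15% and 14.2% in wt (log2 difference of use 8.01, limma adjusted p 1.77e-08). The MRD1 TC, on the other strand between the primary and the inner HEI10 TC, was lower by a log2 fold change of −5.83 (SE 0.661, edgeR adjusted p 2.89e-05). In rrp4-2 the log2 fold changes of the 4 TCs against the same wt libraries were −1.98, −2.0 and 0.88 for HEI10 and −1.52 for MRD1.

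**Figure D4:**
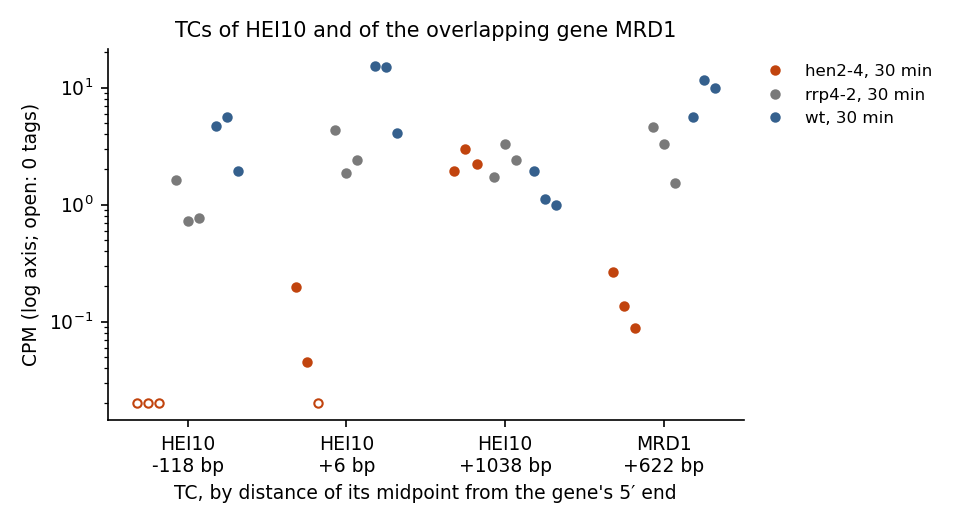
CPM on a log axis at the 3 TCs of HEI10 and the TC of MRD1 in each library at 30 min, by distance of the TC from its own gene's 5′ end; hen2-4 in orange, rrp4-2 in grey, wt in blue (n = 3 each), open circles 0 tags. At the outer HEI10 TCs and at MRD1 the hen2-4 libraries lie below those of wt, and at the TC 1038 bp inside HEI10 they lie at 1.93 to 2.97 CPM beside 0.998 to 1.92 CPM in wt.

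The 10 min libraries share no sample with the 30 min contrast and give the same measure at another time. Both contrasts came from 1 fit and share its estimate of the spread. At 10 min, 197 genes (1.04%) were called higher in hen2-4 and 30 (0.159%) lower. Both lists shared 86 higher genes, 54.8% of the 30 min list and 43.7% of the 10 min list, and 10 lower genes, 32.3% and 33.3%. Of TCs, 1355 (5.11%) were called higher at 10 min and 71 (0.268%) lower. The TC lists shared 925 higher TCs, 73.4% of the 30 min list and 68.3% of the 10 min list, and 17 lower TCs, 20.5% and 23.9%. Of the 1260 TCs called higher at 30 min, 1249 lay above 0 at 10 min, and of the 83 called lower, 72 lay below 0. TCs could pass the authors' filter through the mutants, the hen2-4 libraries at 10 min included, so part of this sharing was fixed in advance. Of the 1260, 348 had at least 1 TPM in at least 3 wt libraries, and sharing within these was not counted.

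**Figure D5:**
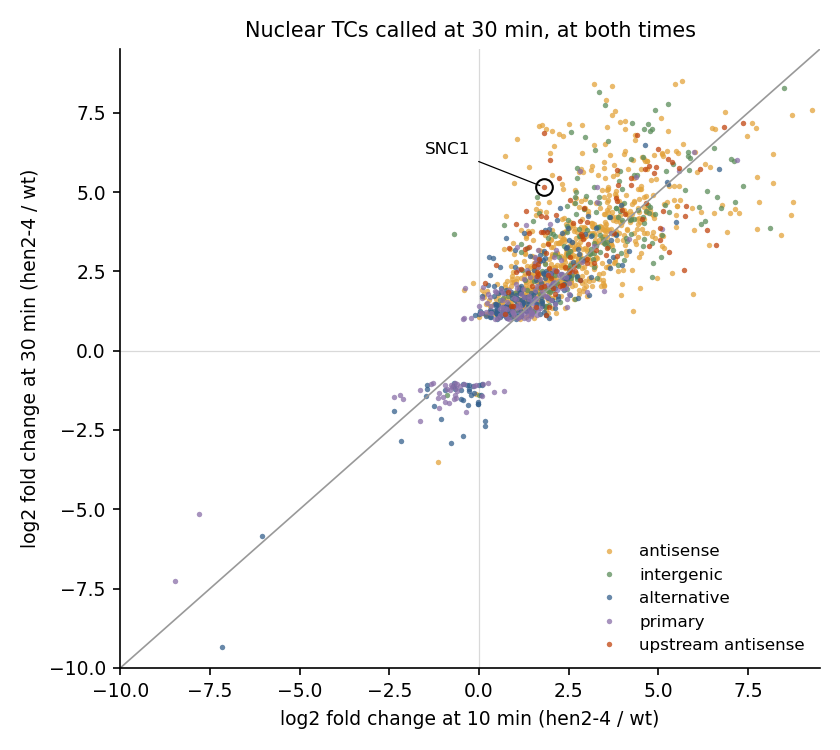
Log2 fold change of hen2-4 against wt at 30 min (vertical) and 10 min (horizontal) for nuclear TCs called at 30 min, coloured by position class, with the line of equality. Most points above 0 at 30 min lie above 0 at 10 min (1249 of 1260 TCs called higher), and the circled TC upstream of SNC1 lies at 5.15 and 1.80.

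The difference of the hen2-4 effect between 30 and 10 min was tested directly. No gene was called by edgeR, with 1079 genes at an unadjusted p under 0.05, 12 calls by DESeq2 and none by limma voom. A single TC was called (0.00377% of those tested), the upstream antisense TC of SNC1, while 1505 TCs had an unadjusted p under 0.05, DESeq2 called 20 and limma voom none. At 30 min it stood at 8.05, 7.86 and 8.01 CPM in hen2-4 and at 0.208, 0.169 and 0.277 CPM in wt (log2 5.15, SE 0.269, edgeR adjusted p 1.65e-08). At 10 min it stood at 3.67, 4.67 and 3.28 CPM in hen2-4 and at 1.24, 0.910 and 1.16 CPM in wt (log2 1.80, edgeR adjusted p 6.11e-05). The SNC1 gene at 30 min stood at 42.8, 37.7 and 35.9 CPM in hen2-4 and 57.8, 37.2 and 45.1 CPM in wt and was not called (log2 −0.27, edgeR adjusted p 0.647).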

How the data were processed

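CAGE tags of 3 hen2-4 and 3 wt libraries at 30 min after flg22 were compared, with hen2-4 and wt at 10 min and rrp4-2 at 30 min in the same fits (15 libraries in all). The authors kept high-quality reads, mapped them to TAIR10 with Bowtie 1.1.2, summed the 5′ ends of uniquely mapped tags, shifted them for the guanine added at the cap, and joined nearby ends into TCs, of which they kept those with at least 1 TPM in at least 3 libraries. The deposited count tables hold raw tag counts per TC and per gene. The deposited TPM tables, used only as an alternative and for 1 filter, hold tags per 1e+06 tags. Repeated sequence is under-represented because only tags that map once were counted, and starts of low use were removed before any test. Each table held 9 further columns that matched no labelled sample and were not used.

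Counts were tested with edgeR 4.0.16 in R 4.3.3 (TMM, filterByExpr, quasi-likelihood, 1 coefficient per group), and TC use with voom and diffSplice of limma 3.58.1. Scripts were tested on simulated data. TCs were placed against the TAIR10.1 annotation, the link of TC to gene being recovered from the counts. Where every library of a group held under 3 tags, a fold is given against that floor only, which covers counting error. Members and lists were chosen with earlier results of these data known. Genes and TCs named for their fold were called, did not overlap between groups, and had at least 1 CPM (TCs, 5 CPM) in the higher group. They were the 12 largest and 8 smallest gene folds, and the 4 largest TC folds of each class and the 6 smallest. The 6 genes with the largest changes of use, and up to 3 called genes of each kind, were named without conditions on level or overlap. Of each list, called members were named, or else the 2 largest differences, which were not called. MTR4, SOP1 and RRP46 were named besides. Alternatives were DESeq2 1.42.0, voom, limma-trend on log2(TPM + 1) and log2(TPM + 0.1), other scalings, filters and fold limits, a replicate block, and leaving out each library. Pooled seedlings of separate wells were replicates, so p-values measure the spread between pools.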

Additional observations from a re-analysis of the deposited data

Results flagged for a closer look

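The hen2-4 effect on the upstream antisense TC of SNC1 (chromosome 4, 9506078 to 9506268, plus strand) differed between times, by a test of the difference itself (log2 difference 3.35, SE 0.354, edgeR adjusted p 0.00179). Its log2 fold change was 5.15 at 30 min and 1.80 at 10 min. The level in hen2-4 was 7.98 ± 0.099 CPM at 30 min and 3.87 ± 0.718 CPM at 10 min, and in wt it was 0.218 ± 0.0551 CPM at 30 min and 1.11 ± 0.173 CPM at 10 min (SD, n = 3 each). In rrp4-2 at 30 min it was 11.6 ± 0.864 CPM.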

How the results depend on the processing

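In every alternative fit that tested them, 26 of the 26 named TCs kept their call. Of the 37 named genes with a call, 16 did so. Other fold limits and the limit to 1 TPM in 3 wt libraries were not part of this count. A log2 limit of 2 drops, among others, the TCs of AT1G56060 (log2 −1.61) and AT3G30390 (log2 −1.54). In the fit of the 6 libraries alone, which has fewer libraries to estimate the spread, genes called fell to 42 (37 higher, 5 lower) against 188 (157 and 31). TCs called were 893 against 1343, with 38 lower against 83, TC use 40 against 63, alternative TCs higher 106 against 173, primary TCs higher 84 against 133 and non-coding genes higher 17 against 54. With limma-trend on log2(TPM + 1), which shrinks low levels, TCs called were 665 (641 higher, 24 lower), genes lower 15, and TCs also called at 10 min 453 against 942. Called higher in that fit were 80 primary, 84 alternative, 63 upstream antisense, 315 antisense and 98 intergenic TCs. TCs lower were 55 with library sizes alone and 55 with limma-trend on log2(TPM + 0.1). Limited to TCs with at least 1 TPM in 3 wt libraries, the counts were 83 primary, 94 alternative, 24 upstream antisense, 117 antisense and 29 intergenic. Upstream antisense TCs higher were 35 within 200 bp of the 5′ end and 212 within 1000 bp. With a log2 limit of 2, genes called were 67 (61 higher, 6 lower) and TCs lower 13, and with no fold limit genes lower were 49 and TCs lower 179. DESeq2 called 56 genes lower. The difference between times was called for 12 genes and 20 TCs by DESeq2, for 0 TCs by limma voom and for 7 TCs by limma-trend on log2(TPM + 1). The salicylic acid median of −0.05 became 0.18 with limma voom, 0.18 with limma-trend on log2(TPM + 1) and 0.23 on log2(TPM + 0.1). For these changes the cause was not tested where none is named.

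When each replicate was left out in turn, genes called ran from 121 to 268 (108 to 196 higher, 13 to 72 lower), TCs called from 1114 to 1380 (1040 to 1210 higher, 50 to 170 lower) and TC use from 39 to 58. The highest of the lower counts came without wt replicate 3. The difference between times gave 0 to 1 genes and 1 to 6 TCs. List medians ran from −0.39 to −0.11 (flg22), −0.26 to 0.39 (salicylic acid), −0.34 to 0.37 (heat shock) and −0.31 to 0.02 (alternative starts).

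Replicate numbers were not taken as pairs. Deviations of same-numbered hen2-4 and wt libraries correlated at 0.35, −0.15 and 0.26, and were not compared with differently numbered ones, so pairing was not tested. With a replicate block, 150 genes were called higher and 26 lower, 1207 TCs higher and 71 lower, TC use in 62 cases, and the difference between times for 2 TCs. Depth limits genes and TCs under 3 tags per library, for which no fold beyond the floor is given.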

Other observations

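The snoRNA genes were called higher in hen2-4 in 3 of 30 cases at 30 min and 15 of 30 at 10 min, with median log2 fold changes of 1.30 and 2.25. In the test of the difference between times no snoRNA or microRNA gene was called by edgeR, DESeq2 or limma voom, with 2 snoRNA genes and 0 microRNA genes at an unadjusted p under 0.05 in edgeR. MicroRNA genes were called higher in 6 of 31 cases at 30 min and 9 of 31 at 10 min, with medians of 1.19 and 1.56. The counts and medians of both kinds may include genes that passed the authors' filter through the mutants alone. Antisense TCs took 0.415% of tags in hen2-4 and 0.204% in wt at 30 min, and 0.529% in hen2-4 and 0.229% in wt at 10 min (means, n = 3 each).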
